A study of Mus musculus with 3 samples.

Results

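Shared regions at the ends of protein-coding genes are stretches of open chromatin, in mouse brain, that 3 separate libraries all called and that lie at a gene's border. Peaks of the 3 libraries were merged where they overlapped by at least 1 bp, which gave 825954 union regions. A region was a member when it held a peak of all 3 libraries and lay within 1 kb of either end of the span of a protein-coding gene, and 27036 regions met this rule. They were 8.39% of the 322222 shared regions, and the shared regions were 39.0% of all union regions. The presence of a peak in each library and the distance to a gene end therefore chose the members and are given as description.

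The libraries, named sciATACv1, sciATACv2 and sciATACv3 and shortened to v1, v2 and v3, were made from nuclei of whole brain of C57BL6 mice, with 1 library per version and no treatment or genetic change in the labels. The assay was single-cell combinatorial indexed ATAC-seq, in which the transposase Tn5 cuts open chromatin and leaves barcoded adapters: nuclei were tagmented in 96 barcoded wells, pooled, and dealt into a chip of 5184 nanowells for indexed PCR. The labels used here do not say what separates the versions, nor how many animals were used, of which sex or how old. With 1 library per version there is no replicate and no test, and each library pools all cell types of the brain, so a peak found in many cells and a peak strong in few cannot be told apart.

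A gene's transcription starts at its promoter, where the general transcription machinery assembles on DNA kept clear of nucleosomes, and this clearing is what Tn5 reads as an open site. Promoters of genes used in most cells usually lie in CpG islands, stretches rich in the dinucleotide CG that stay unmethylated and open in many tissues. Promoters of genes used in a single tissue are more often poor in CG and may carry a TATA box, and they tend to be closed elsewhere. The other border of a gene, where transcription ends, has no such standing requirement for an open site.

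The promoters of 9 genes show this contrast in the sequences themselves. The genes were picked after their values were seen, as examples of each case. The printed bases are the 150 just before the start of transcription, read 5′ to 3′ on the gene's own strand, from RefSeq on build GRCm38.p6, the assembly of mm10. For Hira and Mrpl40, which are transcribed away from each other, they are the 112 bases between the starts, on Hira's strand. CG dinucleotides and the TATA box (TATAAA) are in capitals. The first 3 lines are CG-rich promoters with a shared region at the start: Cct7 (chr6:85451355-85451504, plus strand), a subunit of the chaperonin that folds new proteins, Hira with Mrpl40 (chr16:18876638-18876749, plus strand), a histone chaperone and a mitochondrial ribosomal protein, and Grin1 (chr2:25319188-25319337, minus strand), the obligatory subunit of NMDA glutamate receptors.
Cct7: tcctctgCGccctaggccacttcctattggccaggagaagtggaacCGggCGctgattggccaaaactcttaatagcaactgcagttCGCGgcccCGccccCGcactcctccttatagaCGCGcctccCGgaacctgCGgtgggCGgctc
Hira and Mrpl40: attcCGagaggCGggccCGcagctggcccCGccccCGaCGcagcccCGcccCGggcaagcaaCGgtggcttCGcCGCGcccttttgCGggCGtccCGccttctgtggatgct
Grin1: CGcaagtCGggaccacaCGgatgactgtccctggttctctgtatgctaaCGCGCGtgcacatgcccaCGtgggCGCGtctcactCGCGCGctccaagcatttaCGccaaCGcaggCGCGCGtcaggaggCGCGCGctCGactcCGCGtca

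Open starts were not limited to such sequence. P2ry12 (chr3:59262986-59263135, minus strand), a purine receptor of microglia, and Gfap (chr11:102897201-102897350, minus strand), the intermediate filament of astrocytes, had a shared region at the start with 0 and 1 CG in the printed bases.
P2ry12: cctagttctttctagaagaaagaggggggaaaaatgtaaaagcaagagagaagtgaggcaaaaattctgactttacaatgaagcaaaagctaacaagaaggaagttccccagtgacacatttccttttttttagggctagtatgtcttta
Gfap: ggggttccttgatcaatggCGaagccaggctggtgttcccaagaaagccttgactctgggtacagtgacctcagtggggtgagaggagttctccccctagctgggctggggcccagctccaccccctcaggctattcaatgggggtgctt

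Starts without a shared region are shown by Sycp1 (chr3:102936101-102936250, minus strand), a protein of the synaptonemal complex of meiosis, Krt27 (chr11:99351119-99351268, minus strand), a keratin of the hair follicle, and Alb (chr5:90460720-90460869, plus strand), the serum albumin made by liver. Sycp1 has 14 CG in the printed bases, more than Cct7 with 12, while Krt27 has 4 and a TATA box and Alb has 2. In the 300-base promoters counted further below Sycp1 has fewer than Cct7, with 21 against 29.
Sycp1: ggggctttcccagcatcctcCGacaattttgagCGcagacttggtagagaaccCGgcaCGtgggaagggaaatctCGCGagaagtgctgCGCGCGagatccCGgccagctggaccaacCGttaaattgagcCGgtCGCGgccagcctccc
Krt27: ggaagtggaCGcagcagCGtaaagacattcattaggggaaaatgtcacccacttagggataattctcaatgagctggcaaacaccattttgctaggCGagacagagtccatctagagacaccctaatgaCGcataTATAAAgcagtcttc
Alb: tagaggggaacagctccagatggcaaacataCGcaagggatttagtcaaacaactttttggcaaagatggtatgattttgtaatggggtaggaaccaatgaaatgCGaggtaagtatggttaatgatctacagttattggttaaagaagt

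The deposited peaks follow these starts closely where they are open. At Cct7 the v1 peak ran from 969 bp before the start to 1030 bp after it, the v2 peak from 836 bp before to 1433 bp after, and the v3 peak from 847 bp before to 1387 bp after. At P2ry12 each library had a peak of the minimum width of 500 bp over the start, reaching 137, 90 and 160 bp upstream in v1, v2 and v3, and further peaks on both sides. At Sycp1 v2 alone had a peak inside the first 1 kb of the gene, from 49 to 679 bp after the start. At Alb no library had a peak within 1 kb of the start, and the nearest peaks of all 3 lay upstream, ending 1643 bp before it in v1, 1677 bp in v2 and 1659 bp in v3.

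**Figure D1:**
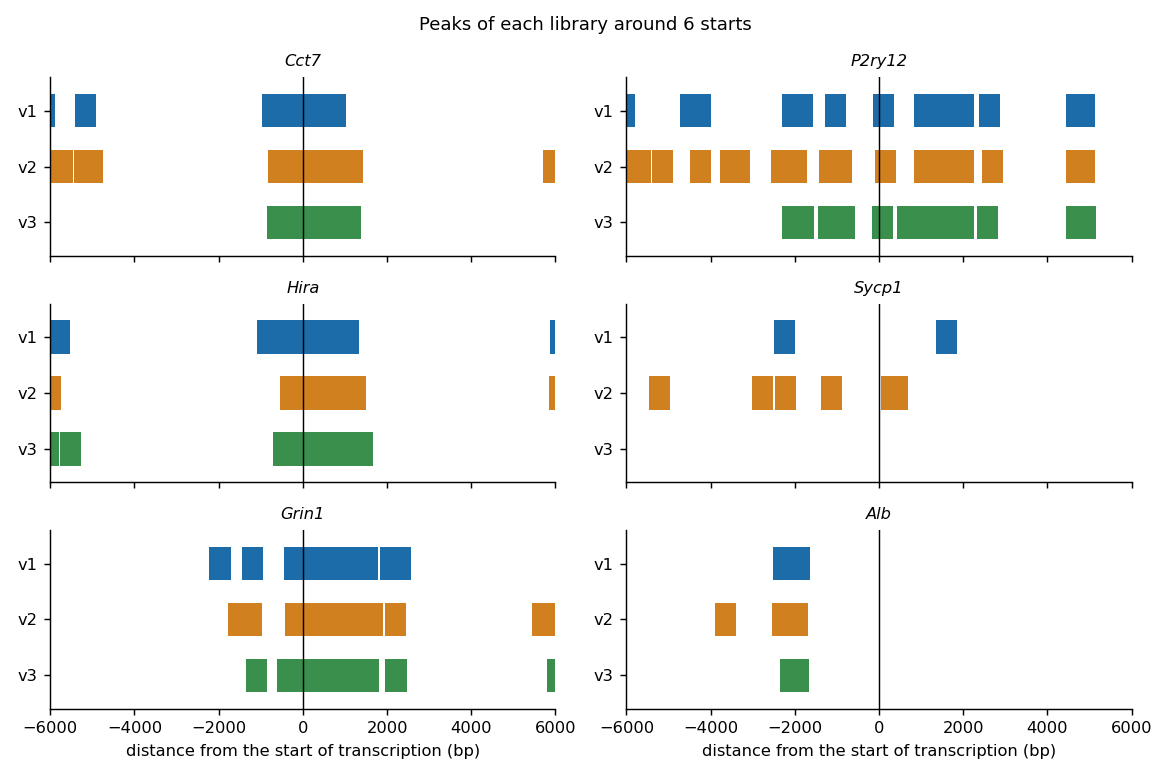
Peaks of each library (v1 blue, v2 orange, v3 green) around 6 starts of transcription; the horizontal axis is the distance from the start in bp, in the direction of transcription, and each bar is a deposited peak. Bars of all 3 libraries cover the start of Cct7, Hira, Grin1 and P2ry12, those at P2ry12 being 500 bp wide, and no bar covers the start of Sycp1 or Alb.

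Gene borders were the kind of place where the libraries most often met. Of the 42080 union regions at a gene end, 64.2% (exact 95% interval 63.8 to 64.7%) held a peak of all 3 libraries, 13.3% of 2 and 22.4% of 1, and these intervals cover counting error only. Away from protein-coding ends the share in all 3 was 43.9% inside genes and 27.7% outside genes. Wide regions are found in all 3 libraries more often wherever they lie, so the places were also set side by side at like width. Merging peaks of several libraries itself widens a region, so width is not independent of sharing. Of the 7424 regions at gene ends that were exactly 500 bp wide, 4 held a peak of all 3. Among regions of 1501 to 2000 bp the share in all 3 was 93.7% at gene ends, 88.9% inside genes and 83.9% outside genes, and among regions of 501 to 750 bp it was 37.2%, 33.7% and 24.3%. The order of the places was the same in both width classes, with smaller gaps than before the split. At 751 to 1000 bp the shares were 44.9%, 43.8% and 32.6%, with overlapping intervals for gene ends and inside genes.

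The members were wide. Their median width was 1913 bp, with the middle 80% between 861 and 3398 bp, against medians of 1356 bp for the 211324 shared regions inside genes and 1235 bp for the 83862 outside genes. A wider region reaches a gene end more easily, so the rule favours width. The bases called open by all 3 libraries at once had a median of 1197 bp per member, against 614 bp inside and 500 bp outside genes. At a like width of 1501 to 2000 bp they made up 66.5% of the region at gene ends, 53.2% inside and 49.5% outside genes, so the 3 peak outlines lay over each other more fully at gene ends than elsewhere at this width. Narrow regions did not differ in this way: at 501 to 750 bp the medians were 83.5%, 82.5% and 82.8%. In 150 members no single base was called by all 3.

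Most members lay over the border itself. In 18040 members (66.7%) the region contained a gene end, in 4870 (18.0%) its nearest base was 1 to 500 bp away, and in 4126 (15.3%) 501 to 1000 bp away. The 838 members 901 to 1000 bp from an end had a median width of 1305 bp and 605 bp called by all 3, and the 780 shared regions just beyond the limit, at 1001 to 1100 bp, had 1305 bp and 500 bp.

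The gene table does not give strand, but the RefSeq promoter table gives it for 17274 of the 21631 protein-coding genes, so that the start and the end of transcription could be told apart. The missing strands were uneven. Strand was given for none of the 511 genes of chromosome 18 and for 422 of the 776 of chromosome 15. Results that tell starts from ends, or use promoters, thus leave out chromosome 18. Among all members 10880 (40.2%) lay at starts only, 8652 (32.0%) at ends only and 1382 (5.11%) at both, and 6122 (22.6%) lay at an end of at least 1 gene whose strand is not given. The regions at starts were a little wider, and more of their width was shared. Members at starts only had a median width of 1961 bp with 1342 bp called by all 3, which was 70.0% of the width. Members at ends only had a median width of 1704 bp, 875 bp called by all 3 and 57.0% of the width.

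**Figure D2:**
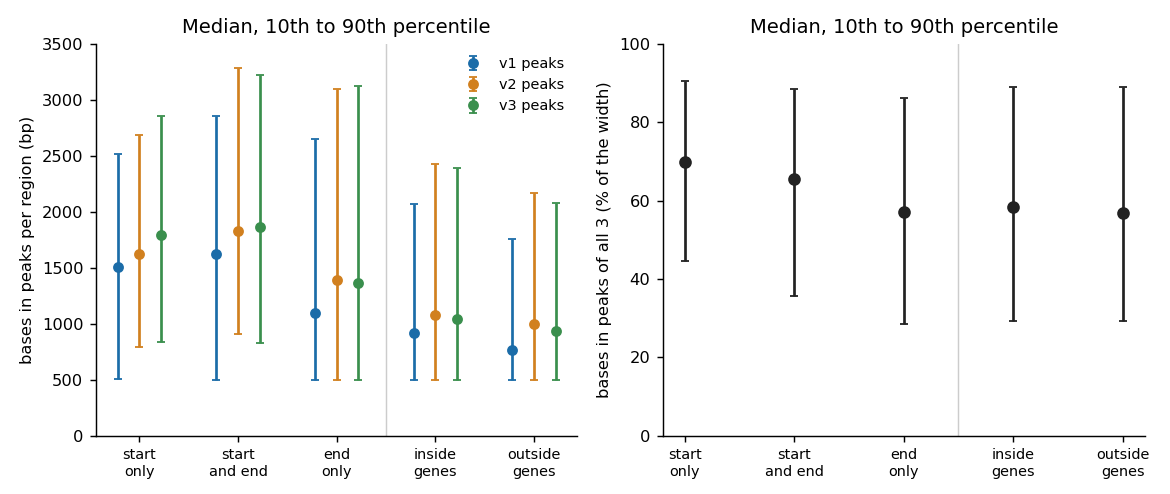
Left, bases in peaks of v1, v2 and v3 per shared region in bp; right, bases in peaks of all 3 as a percent of the region's width; points are medians and bars run from the 10th to the 90th percentile over regions. Members at starts only have the highest share of common bases (70.0%) and members at ends only (57.0%) lie near the shared regions inside genes (58.4%) and outside genes (56.8%).

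Seen from the genes, 16943 of 21631 (78.3%) had a member at an end. Of the 17274 starts 12554 (72.7%) had a member within 1 kb, and of the ends of the same genes 9147 (53.0%). In 8269 genes (47.9%) both borders had a member, in 4285 (24.8%) the start only, in 878 (5.08%) the end only and in 3842 (22.2%) neither. A gene with a shared region at its end of transcription and none at its start was thus the rarest kind. The gap between the borders held where other genes are far away: with no other gene end within 5 kb, 74.6% of 7192 starts and 51.0% of 7322 ends had a member.

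An open end of transcription has to be read against the chance that any nearby position has a shared region. Moved 10 kb away from the gene, 39.5% of starts and 44.0% of ends had a shared region within 1 kb of the new position, and moved 50 kb away 41.1% and 42.4%. Starts in place, at 72.7%, stood far above these positions, and ends in place, at 53.0%, stood closer to them. Moved only 5 kb away, 48.0% of ends had a shared region. The count at ends also depends on how distance is taken: with the midpoint of the region within 1 kb, 31.2% of ends and 63.8% of starts had a member.

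Position by position, the start of transcription was a sharp summit and the end was a local dip. A base 100 bp after the start was called open by all 3 libraries in 62.2% of genes, the highest value of the profile, and at the start itself in 61.8%. The share fell to 11.3% at 1 kb before the start and 28.4% at 1 kb after it, so the open stretch reached further into the gene than in front of it. The start is here the outer edge of the gene span, so any further start of the same gene lies on the inner side. A promoter of the RefSeq table lay within 1 kb of that edge in 15534 of the 17274 genes. The part of further starts in this asymmetry was not tested. At the end of transcription the share was 13.0%, and it rose to 17.6% at 1 kb before and 20.1% at 1400 bp after the end, the highest value on that side. Further out it fell again, to 13.1% at 10 kb after the end, and the lowest values of v1 and v3, 19.1% at 9900 bp and 21.8% at 8400 bp after the end, lay below their 20.2% and 26.6% at the end itself. Thus many members counted at ends of transcription stand beside the end and not on it: 2247 ends (13.0%) lay under a base called by all 3, against 10677 starts (61.8%).

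**Figure D3:**
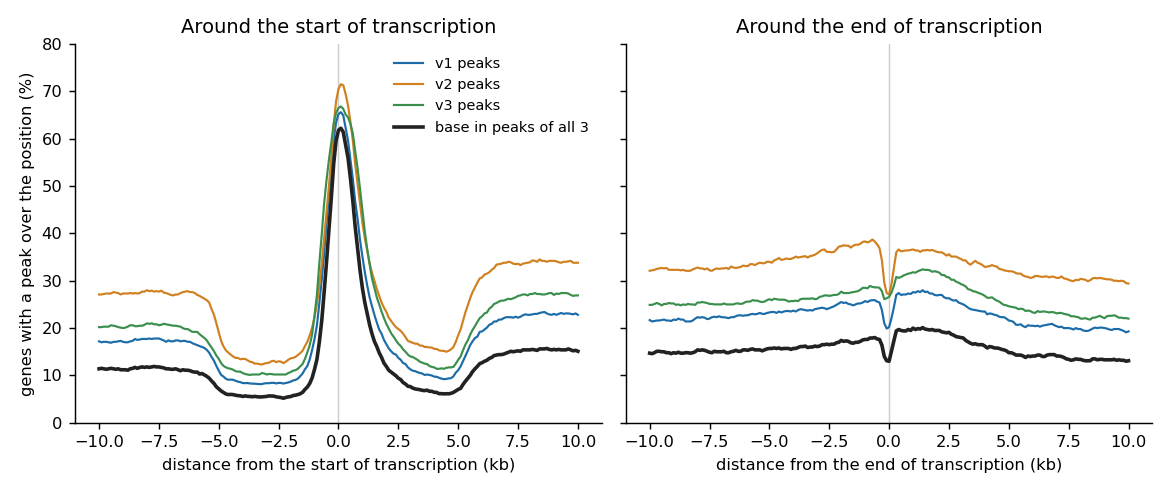
Percent of 17274 genes with a peak over each position, from 10 kb before to 10 kb after the start (left) or end (right) of transcription, in kb in the direction of transcription; thin lines are the 3 libraries and the thick line counts bases in peaks of all 3. The thick line rises to 62.2% just after the start, is low between the summit and about 5 kb on each side, and has a local dip to 13.0% at the end of transcription.

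The asymmetry at starts, read with the same limit, appeared in each library. Over the 10677 starts called by all 3, the peak reached a median of 541 bp upstream and 744 bp downstream in v1, 541 and 838 bp in v2, and 707 and 984 bp in v3. The downstream arm was the longer in 64.1%, 69.4% and 67.5% of these starts. The v3 peaks over these starts were the widest: their median was 1762 bp, and those of v1 and v2 were 1371 and 1464 bp.

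Length of the gene went with both borders. Among genes with spans of up to 2000 bp 25.7% of starts and 24.3% of ends had a member, at 2 to 10 kb 69.8% and 48.8%, and above 100 kb 88.3% and 60.7%. Olfactory and vomeronasal receptor genes made up 1000 of the 2031 shortest spans (49.2%), and 4.6% of their starts and 3.9% of their ends had a member. In the other 1031 short genes the shares were 46.1% and 44.0%.

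Where 2 genes start back to back, a single member nearly always lay within 1 kb of both starts. Of 581 pairs of starts pointing away from each other and at most 1 kb apart, 565 (97.2%, exact 95% interval 95.6 to 98.4%) had such a member. The median gap between the starts was 101 bp, so under the rule a member near 1 start mostly counts for the other as well. Among 16120 starts in no such pair 70.9% had a member, so paired starts had a member more often. The 2 sets were not compared at like CG number, and of all promoters with 11 or more CG 97.8% had a member at the start. The regions at pairs were not wider: their median was 1920 bp, against 1988 bp at the other starts. Hira and Mrpl40, whose starts lie 113 bp apart, shared a member of 2767 bp (chr16:18875660-18878426) in which v1 called 2417 bp, v2 2055 bp, v3 2385 bp and all 3 together 1877 bp.

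In all, 23093 members (85.4%) lay at ends of 1 gene, 3810 (14.1%) of 2 and 124 of 3. The members with the most genes sat at clusters whose genes share their last exons. At the clustered protocadherins on chromosome 18, adhesion proteins that give single neurons their identity, a member of 1830 bp (chr18:37841873-37843702) lay at ends of 25 genes. These include Diaph1, which is not a protocadherin. A neighbouring member of 2118 bp lay at ends of 24, and a member of 2271 bp at the alpha cluster (chr18:37187787-37190057) at ends of 14. The outlines of the 1830 bp member nearly coincided, with 1804 bp in v1, 1788 bp in v2, 1830 bp in v3 and 1788 bp in common. At Ugt1a, the glucuronidating enzymes that share their last exons in the same way, the members at the common end spanned 555 and 1467 bp and lay at ends of 9 and 7 genes. Because the genes of a cluster share 1 border, each such member is a single region counted for many genes.

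Base composition, which the rule did not use, separated starts with and without a member. In the 300-base RefSeq promoters of 15534 genes, from 250 bases before to 50 after the start, the median number of CG dinucleotides was 19 (10th to 90th percentile 4.2 to 36) in the 11393 with a member at the start and 2 (0 to 7) in the 4141 without. The median GC content was 60.3% and 44.0%. With 0 to 2 CG 17.3% of 2935 starts had a member, with 3 to 5 CG 47.0%, with 6 to 10 CG 74.6% and with 11 to 15 CG 94.2%. Above that the share came close to its ceiling, at 97.4% for 16 to 20 CG, 98.7% for 21 to 30 and 99.6% of 2129 starts for 31 or more. Among starts with a member the bases called by all 3 also grew, from a median of 859 bp at 0 to 2 CG to 1410 bp at 11 to 15 and 1595 bp at 31 or more. The promoters include 911 of olfactory and 308 of vomeronasal receptors, each family with a median of 1 CG. Of their starts 51 of 940 and 8 of 321 had a member. The shares of the CG-poor classes were not taken without these receptors, so they are not a general property of CG-poor promoters.

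**Figure D4:**
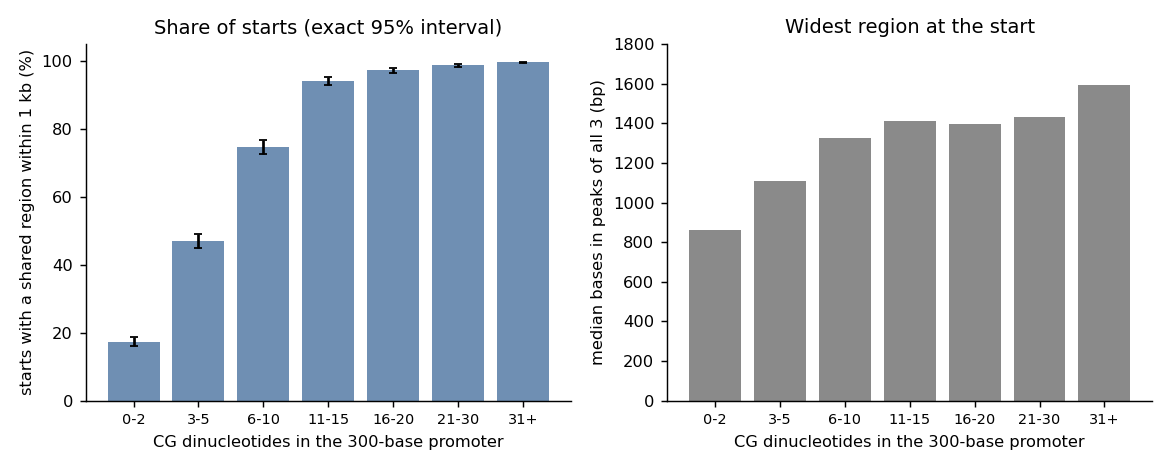
Left, percent of starts of transcription with a member within 1 kb, by the number of CG dinucleotides in the 300-base promoter, with exact 95% intervals for counting error; right, median bases in peaks of all 3, in bp, in the widest member at the start. The share climbs from 17.3% at 0 to 2 CG to 94.2% at 11 to 15 CG and then flattens, and the common bases climb from 859 to 1595 bp.

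Short motifs were searched as exact letters on both strands of the same 300 bases, and a match is not evidence of binding. The TATA box, TATAAA, bound by TATA-binding protein, was found in 7.95% of promoters with a member and 29.7% without, against 13.6% of all 32851 promoters of the table. The GC box, GGGCGG, the letters read by Sp1, was found in 61.7% and 7.92% (35.7% of all promoters), and it holds a CG itself. The same holds for the ETS site CCGGAAG, in 15.7% and 2.58% (8.86% of all), the NRF1 core GCGCATGC, in 4.92% and 0.628% (2.71%), the cAMP response element TGACGTCA, in 3.08% and 0.58% (1.79%), and the E-box CACGTG, in 9.76% and 3.57% (7.15%). Motifs with no CG other than the TATA box differed less. The CCAAT box was found in 38.6% and 43.2% (37.4%), and the YY1 site AAGATGG in 6.71% and 6.18% (6.34%). Matches of different motifs may overlap and were counted separately.

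Within classes of like CG number the TATA box still went with fewer members where CG was scarce. With 0 to 2 CG 9.97% of the 943 promoters with TATAAA had a member, against 20.8% of the 1992 without it, and with 3 to 5 CG 33.3% of 436 against 50.8% of 1566. With 6 to 10 CG the shares were 71.8% of 266 and 75.1% of 1554, with overlapping intervals, and with 11 to 15 CG 94.4% of 161 and 94.1% of 1413. The GC box went the other way: with 3 to 5 CG 63.9% of the 255 promoters with it had a member, against 44.5% of 1747 without, and with 6 to 10 CG 81.1% of 541 against 71.9% of 1279. Olfactory and vomeronasal receptors, whose promoters are poor in CG, were not set apart in these classes. Their part in the contrasts was not tested.

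CG-rich promoters without a member were few. Of the 8777 promoters with 11 or more CG, 192 (2.19%) had no member at the start: 71 had no peak of any library, 57 a region of 1 library and 64 a region of 2. A v2 peak lay within 1 kb of 58.9% of these 192 starts, a v1 peak of 19.3% and a v3 peak of 21.4%. The v2 list covers more bases in all, 669 Mb against 454 Mb in v1 and 490 Mb in v3, and its part in this excess was not tested. Some of the 192 are genes of the germ line. A list of 48 such genes was written after values were seen, so its counts support nothing by themselves. It holds 17 of the 192 (8.85%), and 13 of its 30 genes with 11 or more CG (43.3%) had a member at the start, beside 97.8% of all promoters with that many CG. Among those without were Ddx4, the germ cell helicase Vasa, with 38 CG, Brdt, the testis bromodomain protein, with 23, and Sycp1 with 21. Among those with a member were Tdrd5 with 48 CG and Dazl, a germ cell RNA-binding protein, with 28.

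At the other extreme 509 starts with 0 to 2 CG had a member, some of them wide. Avil, an actin-binding protein of sensory neurons, had 2 CG and a member of 5135 bp at the start, with 4250 bp called by all 3. Gng3, a G protein subunit of neurons, had 2 CG and 4464 bp, with 3300 bp called by all 3, and Akap6, a scaffold for protein kinase A, had 2 CG and 3407 bp, with 2871 bp called by all 3. They were picked, after their values were seen, from the 12 starts of that class with the most bases called by all 3, a group led by Gm12657 with 4357 bp.

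Chromosome X stood apart from the autosomes. On X 544 of 966 protein-coding genes (56.3%) had a member at an end, while the autosomes ranged from 64.6% on chromosome 7 to 91.0% on chromosome 18. Without olfactory and vomeronasal receptor genes X had 56.6% and the autosomes 84.9%. At like composition the share of starts with a member was 90.1% on X and 98.1% on autosomes with 11 or more CG, 53.5% and 76.4% with 6 to 10, and 20.2% and 29.9% with 0 to 5. Each library by itself also had fewer X starts with a peak, 59.6% against 77.4% in v1, 65.8% against 81.6% in v2 and 58.0% against 76.7% in v3. The sex of the animals, which sets the number of X copies, is not in the labels.

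Gene families, taken by symbol, spread over almost the whole scale, read against 78.3% of all protein-coding genes. The lists of the basic machinery of the cell had members for 386 of 391 genes (98.7%), and those of transcription regulators for 444 of 496 (89.5%). The lists named neuronal had them for 176 of 187 (94.1%). They hold whole families, cadherins and semaphorins among them, so not every gene in them is particular to neurons. The lists used mainly in other tissues had members for 234 of 1828 (12.8%). Olfactory and vomeronasal receptors make up 1459 of these 1828 genes and had members for 93 (6.37%), and the remaining 9 families had members for 141 of 369 (38.2%).

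**Figure D5:**
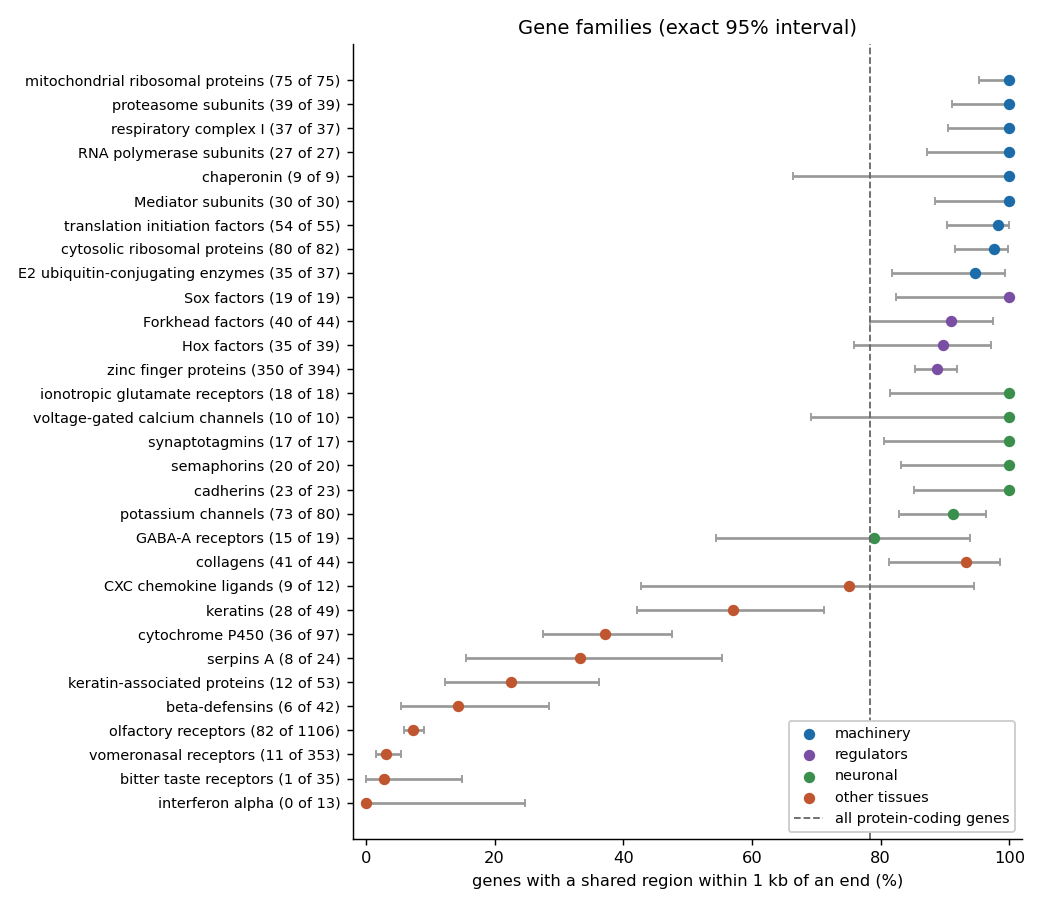
Percent of the genes of 31 families with a member within 1 kb of either end; points are shares, bars are exact 95% intervals for counting error, colours are the groups of families, and the dashed line is the 78.3% of all protein-coding genes. Machinery and neuronal families other than GABA-A receptors lie above 90%, and olfactory, vomeronasal and bitter taste receptors below 8%.

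In the machinery group the members stood at nearly every gene. All 75 mitochondrial ribosomal protein genes, all 39 of the proteasome, all 37 of respiratory complex I, all 30 of Mediator, all 27 of the RNA polymerases and all 9 of the chaperonin had a member. Among cytosolic ribosomal proteins 80 of 82 had one, and the 2 without were Rpl10l and Rpl39l, which carry the names of copies of Rpl10 and Rpl39. Eif4a3l1 among 55 translation initiation factors, and Ube2dnl1 and Ube2dnl2 among 37 E2 ubiquitin-conjugating enzymes, were likewise without and are likewise named as copies. Whether reads from near-identical copies map to a single place was not tested, so the state of these genes is uncertain. All 55 initiation factor genes, Eif4a3l1 included, had a v2 peak at an end. Among the 82 cytosolic ribosomal genes 81 had a v1 peak, 81 a v2 peak and 80 a v3 peak. For the E2 enzymes each library reached 35 of 37, so Ube2dnl1 and Ube2dnl2 had no peak at either end. The widest in these families was at the end of transcription of Eif5, a translation initiation factor: 6410 bp, in which v1 called 4264 bp, v2 5373 bp, v3 5755 bp and all 3 together 4090 bp. At Rpl19, a protein of the large ribosomal subunit, a member of 5014 bp held 4509, 4849 and 4724 bp of the libraries and 4275 bp in common, so v1, v2 and v3 differed little there.

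Neuronal families had high counts, and several had wide members. Their median widths ran from 2267 bp at GABA-A receptors and 2337 bp at cadherins to 3855 bp at ionotropic glutamate receptors, beside 1928 to 2372 bp in the machinery families. All 18 ionotropic glutamate receptor genes had a member. Grin1 was the widest, with 7454 bp, of which v1 called 5334 bp in 8 peaks, v2 6584 bp in 5 peaks and v3 7010 bp in 3 peaks; 4975 bp were common. That member ended at base 25293508 of chromosome 2, far from the start of this minus-strand gene, so it lay at the end of transcription. Gria4, an AMPA receptor subunit, had 5204 bp with 3443 bp in common, also at its end of transcription. All 17 synaptotagmins, vesicle proteins that sense calcium, all 20 semaphorins, which guide axons, all 23 cadherins and all 10 voltage-gated calcium channels had a member, and 73 of 80 potassium channel genes. Kcnc1, a fast potassium channel of firing neurons, had 5336 bp with 3537 bp in common, again at its end of transcription. GABA-A receptors were the exception, at 15 of 19. The 4 without were Gabrp, Gabrr1, Gabrr3 and Gabra6, the last a subunit of cerebellar granule cells. Each library had a peak at an end of at least 16 of the 19 genes.

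Regulators of development were also wide. All 19 Sox genes had a member, with a median width of 3219 bp, and the widest was at Sox14, at 7950 bp with 5470 bp in v1, 6307 bp in v2, 7628 bp in v3 and 5270 bp in common. Sox10, the regulator of oligodendrocytes, and Polr2f, an RNA polymerase subunit, named the same member of 5537 bp. Of 39 Hox genes, which pattern the body axis, 35 had a member, and Hoxd9 and Hoxd10 shared a member of 4930 bp. Hoxa7, Hoxb1, Hoxb13 and Hoxc12 had none. Of 44 forkhead genes 40 had a member, all but Foxl1, Foxn4, Foxr1 and Foxr2. Zinc finger proteins, the largest regulator family, had 350 of 394, with a median width of 2106 bp.

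The families of other tissues ranged widely, and the receptor families of the nose and tongue were mostly bare. Of 1106 olfactory receptor genes 82 (7.41%) had a member, of 353 vomeronasal receptors 11 (3.12%), and of 35 bitter taste receptors only Tas2r138. Their members were also less shared: the median of the bases called by all 3 was 493 bp at olfactory receptors, where Olfr435 had the widest member, 3683 bp, with 2550 bp in v1, 3683 bp in v2 and 2825 bp in v3. None of 13 interferon alpha genes had a member, and only v2, the list that covers the most bases, had a peak at an end of any of them, at 3. Beta-defensins had 6 of 42, keratin-associated proteins 12 of 53, serpins of the A group 8 of 24 and cytochrome P450 enzymes 36 of 97. The widest of the P450 members was at Cyp46a1, the brain enzyme that turns cholesterol into 24-hydroxycholesterol: 4424 bp at its end of transcription, with 1457 bp in v1, 4102 bp in v2 and 3909 bp in v3. Keratins had 28 of 49 (57.1%), CXC chemokine ligands 9 of 12 (75.0%) and collagens 41 of 44 (93.2%), the highest share in this group. Cxcl12, a chemokine that guides migrating cells, had a member of 3584 bp with 3256 bp in common.

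Marker genes were few, and their counts are read against the 78.3% of all protein-coding genes with a member. Those of each main brain cell type had members: 7 of 7 of neurons, 4 of 4 of astrocytes, 4 of 4 of oligodendrocytes, 4 of 4 of microglia and 3 of 3 of endothelium. Markers of other tissues had 5 of 8, and a member did not by itself mark a brain gene. Snap25, of the synaptic fusion machinery, had a member of 2863 bp with 2171 bp in v1, 2152 bp in v2, 2839 bp in v3 and 2116 bp in common. Slc1a3, the astrocyte glutamate transporter, had 2158 bp with 1857 bp in common, and Cldn5, the tight junction protein of brain endothelium, 3212 bp with 2828 bp in common. At the microglial gene Cx3cr1, the fractalkine receptor, the member of 1545 bp held 500 bp in v1, 686 bp in v2, 1474 bp in v3 and 442 bp in common, so v3 was far wider than v1. Hbb-bs, Krt5 and Umod had none. Alb and Cd3e had members of 609 and 644 bp at the end of transcription only, with v1, v2 and v3 each at 500 bp for Alb, whereas Apoa1, an apolipoprotein, had 1695 bp with 1536 bp in common.

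The widest members of all lay mostly at ends of transcription. Of the 10 widest, 6 lay at ends of transcription only and the other 4 at genes of which at least 1 has no given strand. The widest, at Asah1 and Pcm1 (chr8:41333389-41344696), a lysosomal ceramidase and a centriolar satellite protein, spanned 11308 bp, with 9982 bp in v1 in 8 peaks, 9616 bp in v2 in 8 peaks, 10493 bp in v3 in 3 peaks and 8690 bp in common. At Lrp1 and Nxph4 (chr10:127534026-127543275), an endocytic receptor and a neurexophilin, a member of 9250 bp held 5107 bp, 7856 bp and 5467 bp and 3522 bp in common. The others, from 8262 to 9212 bp, lay at Nmt1 with Plcd3, Cavin4, Jdp2, Misp with Palm, 1700030K09Rik with Cherp, Gga3 with Nup85, Mau2 and Ipo8. In v1 and v2 such regions were chains of adjoining peaks more than single outlines, with 6 to 9 peaks in each in v1 and 5 to 9 in v2. In v3 they were more continuous, with 2 to 5 peaks in each. At Nmt1 with Plcd3 2 v3 peaks covered 9055 of the 9212 bp.

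The libraries called similar amounts of members. The median bases in peaks per member were 1410 bp in v1, 1577 bp in v2 and 1683 bp in v3, and the ratio of bases within a member had a median of 1.04 between v2 and v1, of 1.12 between v3 and v1 and of 1.03 between v3 and v2. Inside genes the medians were 917, 1076 and 1041 bp. At 2001 to 3000 bp of width the median ratio of v2 to v1 was 1.06 at gene ends, 1.18 inside genes and 1.28 outside genes, and that of v3 to v1 was 1.16, 1.17 and 1.22. Over all widths the ratio of v3 to v1 was the higher at gene ends, at 1.12 against 1.05 inside genes and 1.05 outside genes. Members with at least 2 times the bases in v2 as in v1 were 6.44%, against 9.44% of all shared regions; the shares were 6.6% and 9.52% in v3 against v1, and 2.56% and 3.25% in v3 against v2. Members with at most 0.5 times the bases were, in the same order, 0.555% against 0.894%, 1.41% against 2.92% and 3.51% against 5.83%. In each of these 6 contrasts the share over all members was below that of all shared regions, but members at ends of transcription only differed. Theirs were 9.63% wider and 0.925% narrower in v2 against v1, and 3.73% and 6.23% in v3 against v2, all above the shared regions. In v3 against v1 they were 9.32% and 2.64%, below them. Members at starts only had 3.81% and 0.294% in v2 against v1, 4.52% and 0.616% in v3 against v1, and 1.83% and 1.61% in v3 against v2. The v3 list also had more continuous outlines, with more than 1 peak in 21.1% of members, against 36.3% in v1 and 36.3% in v2. Over all shared regions the shares were 16.6% in v3, 28.2% in v1 and 29.9% in v2. The low value of v3 was thus not particular to members, and members held more than 1 peak more often in each list.

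The members that differed most between libraries, among the 12470 over 2000 bp wide, had in each case a 500 bp peak, the least the lists hold, in the lower library. At Pax7, a regulator of muscle stem cells and dorsal midbrain, v1 called 500 bp, v2 3165 bp and v3 4802 bp, a ratio of 9.6 for v3 over v1. At Ccdc114, a protein of the ciliary dynein docking complex, v1 called 500 bp, v2 4289 bp and v3 1930 bp, a ratio of 8.58 for v2 over v1. In the other direction Dapl1 had 2815 bp in v1, 2854 bp in v2 and 500 bp in v3, a ratio of 0.178 for v3 over v1. Nes, the intermediate filament nestin of neural progenitors, had 1353 bp, 3667 bp and 500 bp, a ratio of 0.136 for v3 over v2 at its end of transcription, and Mndal had 2182 bp, 500 bp and 898 bp, a ratio of 0.229 for v2 over v1. The same rule also named Fgd2, Fam83g, Triobp, and Mettl5 with Ssb between v2 and v1, Heatr9, Lss, Zfp407 and Hoxd4 between v3 and v1, and Miip, Col6a5, Cox7a2, Abcd4, and Prss33 with Prss41 between v3 and v2. Depth per library is not known from these lists, and with 1 library per version its part in these differences and that of the version cannot be told apart.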

How the data were processed

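Each library comes with 1 deposited list of peaks, giving chromosome, start and end and no count, height or score. Peak positions in these deposited lists are the only unit used. The build mm10 and the tools MACS2 and ArchR are named per the submitters' processing notes. Not given in the sources used here were the aligner, tool versions, calling threshold and depth. The lists hold 622754 (v1), 850991 (v2) and 512023 (v3) peaks, at least 500 bp wide, with no overlaps within a list, on chromosomes 1 to 19 and X, so low depth cannot be told from closed chromatin.

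Peaks overlapping by at least 1 bp were merged, and bases in peaks were counted per library. Protein-coding gene spans came from RefSeq, GRCm38.p6, with strand and 300-base promoters from its promoter table. Intervals are exact Clopper-Pearson at 95%. Named genes were the 10 widest members, the 5 with most genes, 2 per family (up to 5 in sparse families), the 3 highest and 3 lowest width ratios per library pair among members over 2000 bp, and all markers. Family genes without a member, and the exceptions stated in the text, were named after their values were seen. The members and lists were chosen with earlier results of these data known. Python 3.11.15, pandas 2.3.3, numpy 2.4.6, SciPy 1.17.1 and matplotlib 3.10.9 were used, and merging and distances were tested on simulated data against direct counting. Values per nucleus were not analysed here.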

Additional observations from a re-analysis of the deposited data

How the results depend on the processing

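In the order number of members, percent of shared regions, percent of genes, percent of starts, percent of ends and median width, the values were 27036, 8.39, 78.3, 72.7, 53.0 and 1913 bp. With a region required to be covered by each library over 50% of its width they were 22605, 9.26, 73.5, 66.5, 43.6 and 1945, and with peaks over 500 bp alone 20100, 12.7, 72.2, 66.7, 38.5 and 2095. With a distance of 500 bp they were 22910, 7.11, 75.9, 70.0, 44.0 and 1992, with 2000 bp 34603, 10.7, 80.8, 76.1, 64.6 and 1795, and with the region's midpoint within 1 kb 19073, 5.92, 70.8, 63.8, 31.2 and 1846. With all genes of the table they were 44243, 13.7, 63.8, 69.0, 50.9 and 1797. Without v1 they were 29461, 7.57, 79.7, 74.2, 56.3 and 1749, without v2 27630, 7.9, 78.1, 72.4, 51.6 and 1683, and without v3 32463, 6.49, 80.2, 74.4, 56.8 and 1310. Median bases in peaks of v1, v2 and v3 were 1530, 1628 and 1754 bp with 50% cover and 1462, 1655 and 1845 bp with peaks over 500 bp. Starts kept the higher share in each of these settings. Merging touching peaks (27030 members) and isolated borders (74.6% of starts, 51.0% of ends) were tried after seeing the data. No paired analysis was possible because each version has 1 library.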

Other observations

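Around starts of transcription the peaks thinned out between the summit and about 5 kb on each side, with a step at the same distance in each library. At 3 kb before the start 8.36% of genes had a v1 peak, 12.6% a v2 peak and 10.2% a v3 peak over the position. At 7 kb before it the shares were 17.2%, 27.0% and 20.6%, so that positions further from the gene were called open more often than nearer ones. After the start the shares rose from 9.74% at 4 kb to 19.3% at 6 kb in v1, from 15.6% to 30.7% in v2 and from 11.7% to 22.5% in v3. The step was present around starts that were themselves under a peak. Over the 10677 starts called by all 3 a base in all 3 was found in 4.9% of genes at 4 kb before the start and 13.3% at 6 kb before it, and in 5.68% and 16.7% at the same distances after it. Around the 4571 starts under no peak of any library the same shares were 5.18% and 4.77% before the start and 6.39% and 4.27% after it. The cause was not tested, and the labels do not give the settings of the peak calling. Comparisons of gene starts with positions 5 kb away fall on this step: 31.6% of starts moved 5 kb away had a shared region within 1 kb, against 39.5% at 10 kb.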
